A study of Homo sapiens with 24 samples.

Results

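This report describes gene expression in three-dimensional aggregates of LUHMES neurons on day 15 of differentiation, after a short exposure to 50 nM rotenone and a drug-free recovery period. The groups compared held 9 of the 24 arrays in the series, chosen by their sample titles. Of these, 3 were of aggregates that received 50 nM rotenone for 12 h, 3 of aggregates that received it for 24 h, and 3 of aggregates that received the solvent DMSO. LUHMES is a human mesencephalic line, immortalised by a v-myc transgene that tetracycline switches off, and all groups were differentiated under gyratory shaking with cAMP, GDNF, tetracycline and N2 supplement. Rotenone or DMSO was given on day 7. The compound was then washed out and the cultures went on until day 15, when total RNA was collected. The DMSO control carried the solvent amount of the 100 nM dose, so it held more solvent than the 50 nM wells. The same 3 groups collected on day 8, at the end of exposure, gave 9 further arrays, against which the day 15 values were read. All 24 arrays were in 1 fit, including those of aggregates given 100 nM rotenone for 24 h. Standard errors, intervals and p-values therefore draw on the spread in every group, and not in the compared groups alone. Replicates were wells, 3 per group, so the p-values measure the spread between wells of 1 cell line and no spread between donors.

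Rotenone blocks complex I of the mitochondrial respiratory chain, which passes electrons from NADH to ubiquinone and pumps protons for ATP synthesis. Dopaminergic neurons of the midbrain are known for their sensitivity to this block, and rotenone is used to model features of Parkinson's disease. Cells that lose complex I activity shift glucose use, amino acid synthesis and stress signalling through transcription, and the comparison on day 15 asks how much of that response was still visible after the compound had been removed.

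RNA was hybridised to 1-colour Agilent arrays, and all levels below are log2 signals after background correction and quantile normalization, so a difference of 1 is a 2-fold difference. A gene was tested if a probe of it was well above background on all 3 arrays of at least 1 of the 3 day 15 groups, which left 14887 genes. On every slide a group took the same position, so that position and group cannot be told apart. The slide 1 arrays had been repeated with another washing procedure. Among the day 15 arrays compared, slide 1 had 69.0 to 82.4% of spots well above background. Slide 2 had 57.1 to 60.8% and slide 3 had 51.7 to 56.6%. Replicates 1, 2 and 3 lie on slides 1, 2 and 3, and the fit compared groups within slides. One control needs a caution, since the scan name stored with DMSO replicate 1 of day 15 mentions a 12 h exposure and not DMSO, unlike those of the other 2 controls. Its group here rests on its GEO label, and some counts and differences are given with and without it. Without it, 713 genes instead of 416 had an unadjusted p under 0.05 on day 15. Over 1.5-fold at an unadjusted p under 0.01 there were 21 instead of 16. Of the 93 genes chosen for naming by the rule in the methods, 42 reached an unadjusted p under 0.05, of which 31 also did so without that array and 0 changed sign. Those that did not were RTP4, BDKRB2, CD200, FRMPD2, RET, SLC32A1, CADPS, ABCC1, SST, CHCHD2 and PPARGC1B. Levels come from whole aggregates, in which fewer cells of a type and less RNA per cell cannot be told apart.

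On day 15 the 6 rotenone arrays and the 3 DMSO arrays were close to each other across the transcriptome. The limma test called 0 of 14887 genes (0%) beyond 1.5-fold at an adjusted p under 0.05, and 0 genes at any fold, with a smallest adjusted p of 0.332. At an unadjusted p under 0.05 there were 416 genes (2.79%), and at an unadjusted p under 0.01 there were 81 (0.544%). Both shares lie under the thresholds themselves, so they are no measure of closeness. With only the compared arrays in the fit, 656 genes had an unadjusted p under 0.05, with a smallest adjusted p of 0.76. The main fit also held 100 nM replicate 3 of day 15, whose residual SD of 0.312 was the largest of all arrays. Its part in these counts was not tested. The counts over 1.5-fold at adjusted p under 0.05 were also 0 with ComBat in place of the slide block and with the authors' own normalized values, whose smallest adjusted p was 0.072. A single gene passed when slide 1 was left out (ZNF577, log2 fold change -1.68, adjusted p = 0.031) and when DMSO replicate 1 alone was left out (ZNF577, -1.65, adjusted p = 0.0045). Without replicate 2 of the 12 h group, 1 other gene passed (PRSS8, 0.68, adjusted p = 0.018).

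The precision of the comparison depended on signal level. The median standard error was 0.108 on the log2 scale, and for 12837 genes (86.2%) the 95% interval of the difference lay inside 1.5-fold in both directions. Among the 4963 genes of lowest DMSO signal, between 3.62 and 7.03, the median standard error was 0.177 and 64.8% had such an interval. Among the 4962 genes of highest signal, from 9.25 upward, the median standard error was 0.083 and the share was 98%. A lasting difference of 1.5-fold was therefore measurable for most well expressed genes and often not for dim ones.

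**Figure D1:**
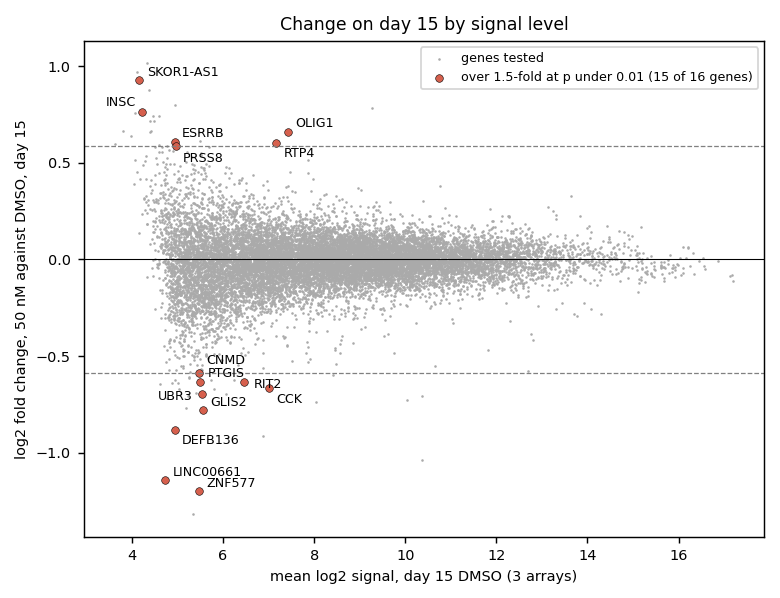
Difference between the 6 rotenone arrays and the 3 DMSO arrays on day 15 (log2 fold change, vertical axis) against mean DMSO log2 signal (horizontal axis), 1 point per gene. The dashed lines mark 1.5-fold, 15 of the 16 genes past it at an unadjusted p under 0.01 are in red, and 13 of the 16 lie among the genes of lowest signal.

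The size of the first response sets the scale for day 15. At the end of exposure on day 8, the same fit called 454 genes (3.05%), 215 higher and 239 lower in rotenone than in DMSO. The change itself differed between the days beyond 1.5-fold for 345 genes (2.32%) at an adjusted p under 0.05, of which 259 were among the 454. That test uses the same day 8 values that chose the 454, so it is no independent count for them. With the processed signals of the scanner software in place of the main processing, day 8 had 437 genes higher and 307 lower, and the test between days had 224 higher and 333 lower on day 15 relative to day 8, against 193 and 152 in the main fit.

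Thioredoxin-interacting protein (TXNIP), an alpha-arrestin that restrains glucose uptake and binds thioredoxin, had the largest fall of day 8. Its level was 12.61, 12.38 and 12.15 in DMSO and between 9.68 and 10.07 in the 6 rotenone arrays of day 8. That difference was -2.47 on the log2 scale (SE 0.12, adjusted p = 9.9e-10). By day 15 the level was 12.20, 12.41 and 12.02 after 12 h and 12.41, 12.11 and 11.88 after 24 h of rotenone, beside 11.99, 12.52 and 12.02 in DMSO. The 9 arrays of day 15 overlapped throughout, with a difference of -0.01 and a 95% interval from -0.25 to 0.24. The change in TXNIP differed between days by 2.47 (adjusted p = 2.7e-07).

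ARRDC4, a second alpha-arrestin regulated with TXNIP by the glucose-sensing factors MondoA and ChREBP, was also back near its control. It fell by 1.86 on day 8 (SE 0.12, adjusted p = 5.3e-08), from 7.71, 7.90 and 7.74 in DMSO to between 5.35 and 6.25. On day 15 it stood at 7.28, 7.79 and 7.65 in DMSO, at 7.83, 7.86 and 7.81 after 12 h, and at 7.54, 7.46 and 7.37 after 24 h. The 12 h arrays were just above DMSO, the 24 h arrays lay within it, and the pooled difference was 0.07 with a 95% interval from -0.18 to 0.33. The other alpha-arrestins measured included ARRDC2 (0.23, SE 0.13) and ARRDC3 (-0.24, SE 0.18), and 0 of 5 members passed an unadjusted p under 0.05 on day 15.

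The promoters of these genes are shown because both carry the box from which the carbohydrate response element of MondoA and ChREBP is built. Capitals mark CACGNG on either strand in the 250 bases before the start of the gene (RefSeq, GRCh38.p14), a motif present in 26.7% of 35116 promoters of that length. Matches may overlap, as the 2 in the palindrome of ARRDC4 do. The first stretch is chr1:145996580-145996829 on the minus strand, and the second is chr15:97960453-97960702 on the plus strand.
TXNIP: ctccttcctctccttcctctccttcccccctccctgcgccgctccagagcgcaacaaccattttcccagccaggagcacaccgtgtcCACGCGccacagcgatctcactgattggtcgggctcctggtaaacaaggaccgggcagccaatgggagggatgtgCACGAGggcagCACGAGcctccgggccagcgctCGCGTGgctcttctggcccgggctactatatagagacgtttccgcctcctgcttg
ARRDC4: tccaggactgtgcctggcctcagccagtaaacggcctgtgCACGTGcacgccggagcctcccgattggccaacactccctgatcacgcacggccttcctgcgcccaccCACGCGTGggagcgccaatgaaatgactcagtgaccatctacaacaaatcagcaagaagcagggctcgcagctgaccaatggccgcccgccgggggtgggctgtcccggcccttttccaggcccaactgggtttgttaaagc
TXNIP held 4 matches, at 163, 88, 77 and 55 bases before its start, and 2 of them lie on 1 strand with 5 bases between them. Such a spaced pair was found in 16 of the 35116 promoters (0.046%). ARRDC4 held 3 matches and no such pair in this window. These are letter matches, and no binding was measured.

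The other large falls of day 8 closed as well. SPMIP6, which encodes a protein of sperm microtubules, went from a day 8 difference of -1.89 (adjusted p = 8e-07) to 0.03 on day 15 with an interval from -0.29 to 0.35. The hormone gene AMH went from -1.55 (adjusted p = 8e-07) to 0.05, with 7.94, 8.81 and 8.47 after 12 h and 8.74, 9.06 and 9.11 after 24 h, against 8.37, 8.98 and 8.57 in DMSO. H1-10-AS1, an antisense transcript, went from -1.95 (adjusted p = 9.9e-10) to 0.17 (SE 0.09). For H1-10-AS1 the gap closed with the control moving, since DMSO went from a mean of 8.95 on day 8 to 6.77 on day 15 while rotenone went from 7.01 to 6.94. For TXNIP it closed with the treated cells moving, from 9.91 to 12.17, against 12.38 to 12.18 in DMSO.

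Among the rises of day 8, the bradykinin receptor BDKRB2 went from 8.24, 8.08 and 8.33 in DMSO to between 9.82 and 10.16 in rotenone, a change of 1.76 (SE 0.11, adjusted p = 4.9e-08). On day 15 DMSO was at 6.40, 6.78 and 6.71 and the 6 rotenone arrays ran from 6.68 to 7.15. The groups overlapped, with a difference of 0.26 (interval 0.02 to 0.49, adjusted p at 1.0). By slide it was 0.67, 0.03 and 0.07, and without DMSO replicate 1 it was 0.09 (SE 0.11). PRSS56, a secreted serine protease, stood 1.86 higher on day 8 (adjusted p = 2.6e-06) and 0.17 higher on day 15 (interval -0.18 to 0.53). FAT1, a protocadherin, stood 1.41 higher on day 8 (adjusted p = 0.00012) and 0.12 higher on day 15 (interval -0.30 to 0.54). In BDKRB2 and PRSS56 the levels of both groups were lower on day 15 than on day 8. TFAP2A-AS1, an antisense RNA placed among the 5 by the fit, was well above background on 0 of 3 DMSO and 0 of 6 rotenone arrays of day 8, the only such gene of the 454, so it has no measured change on that day. On day 15 it differed by -0.02 (interval -0.96 to 0.93).

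The skeletal muscle actin gene ACTA1, a target of serum response factor (SRF), had the largest rise of day 8, at 2.22 (SE 0.46, adjusted p = 0.003). On day 15 its level was 10.69, 10.61 and 11.32 in DMSO, 11.47, 11.43 and 11.80 after 12 h, and 8.72, 11.55 and 11.88 after 24 h. The other 5 rotenone arrays were above all 3 DMSO arrays, whereas 24 h replicate 1 was below all of them. The pooled difference was 0.27 with an interval from -0.71 to 1.24, too wide to tell a return to control from a lasting rise. Its promoter is printed because it holds the CArG box that SRF binds, marked in capitals on chr1:229434095-229434344, minus strand (RefSeq, GRCh38.p14), a match found in 1.16% of promoters of this length.
ACTA1: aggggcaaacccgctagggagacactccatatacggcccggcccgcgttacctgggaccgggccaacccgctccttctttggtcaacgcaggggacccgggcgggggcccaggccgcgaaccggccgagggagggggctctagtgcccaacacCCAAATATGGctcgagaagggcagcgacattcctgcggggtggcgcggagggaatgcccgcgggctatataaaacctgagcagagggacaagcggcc
The box lies 97 bases before the start. Of 23 measured genes of the actin and SRF list, 6 were higher and 2 lower on day 8 at an adjusted p under 0.05 at any fold, where 1226 of all genes (8.24%) were higher and 1494 (10%) lower, and on day 15 LCP1 alone passed an unadjusted p under 0.05. FHL2, another known SRF target, chosen after its values were seen, went from 0.70 (adjusted p = 8e-05) to 0.15 (SE 0.09), and to 0.01 without DMSO replicate 1 of day 15.

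**Figure D2:**
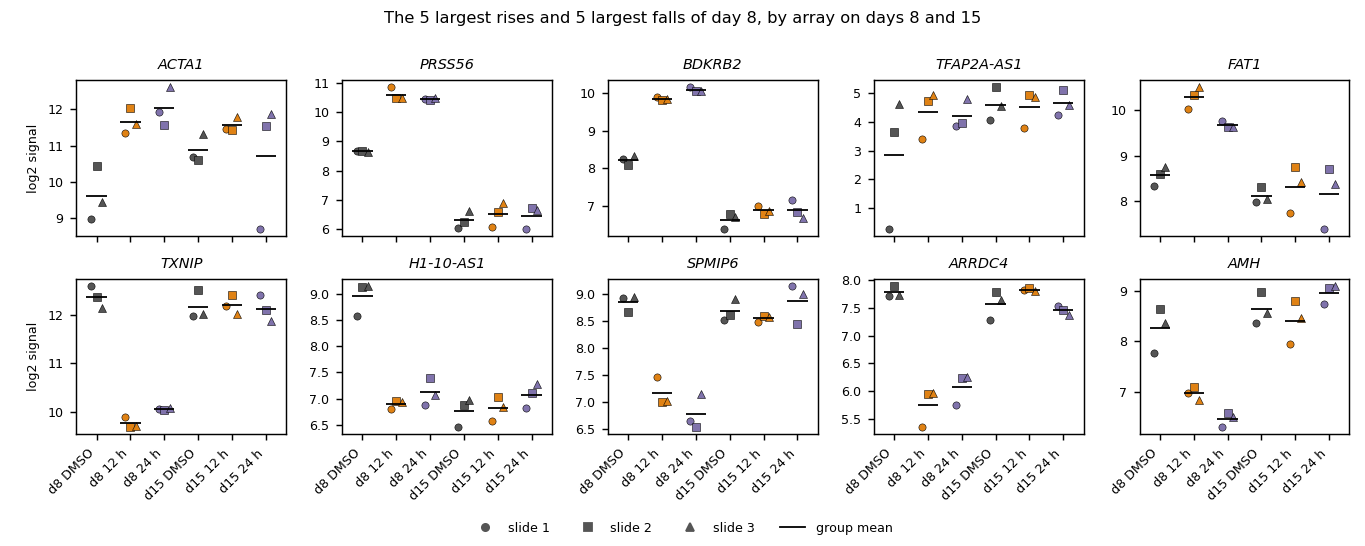
Log2 signal of each array (points, shaped by slide) and group means (lines) for the 5 largest rises (top) and 5 largest falls (bottom) of day 8, in DMSO, 12 h and 24 h groups of day 8 (d8) and day 15 (d15). TXNIP and ARRDC4 sit below DMSO on day 8 and near its level on day 15, and 24 h replicate 1 of ACTA1 sits at 8.72 on day 15. TFAP2A-AS1 was not well above background on any day 8 array.

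Across all 454 genes the differences had shrunk. The 215 genes higher on day 8 had a median difference of 0.724 then and 0.0419 on day 15, with the middle 50% between -0.0383 and 0.134. The 239 lower genes had medians of -0.719 and -0.0149. No gene of the 454 stood beyond 1.5-fold on day 15, where the differences ran from -0.486 (LCP1) to 0.494 (CABP2), beside 57 genes (0.383%) beyond 1.5-fold among all genes tested. The 95% interval lay inside 1.5-fold for 389 of the 454, and for 444 the day 15 difference was less than 50% of the day 8 difference in size. By slide, the medians of the higher genes were 0.0972, 0.0107 and 0.0523. Without DMSO replicate 1 the median of the higher genes went from 0.0419 to -0.00378 and that of the lower genes from -0.0149 to -0.0503, so the sign of the first depends on that array. The 12 h group gave medians of 0.0554 and -0.0389 and the 24 h group 0.0369 and -0.0104, both against the same DMSO arrays.

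**Figure D3:**
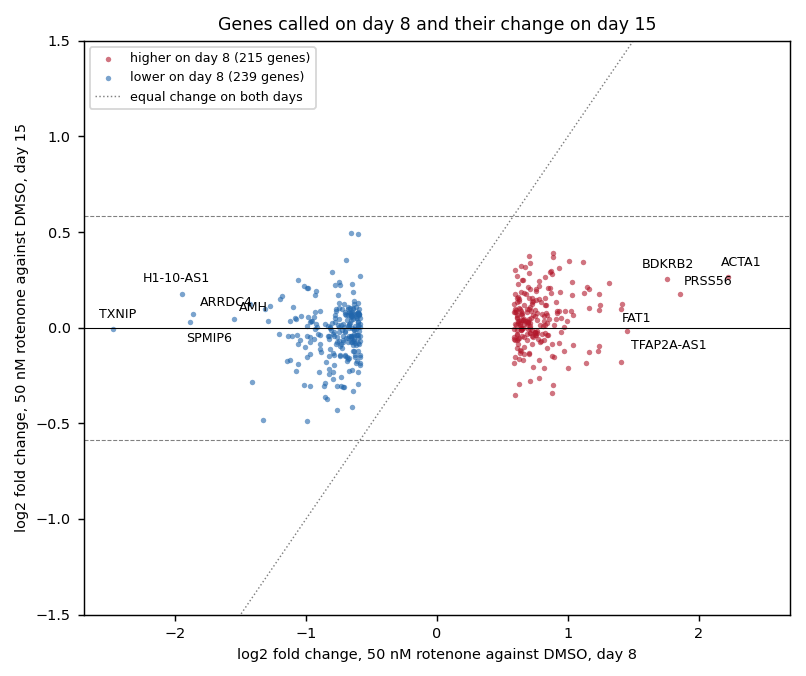
Each of the 454 genes called on day 8, with its day 8 difference on the horizontal axis and its day 15 difference on the vertical axis (both log2 fold changes of 50 nM rotenone against DMSO). Dashed lines mark 1.5-fold on day 15 and the dotted line marks equal change. All points lie between the dashed lines, and TXNIP lies at -0.01 on day 15.

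A small remainder was measured as a description. Of the 454 genes, 32 (7.05%) had an unadjusted p under 0.05 on day 15, against 2.79% of all genes, and 26 of the 32 differed in the direction of day 8. Across these 454 genes the correlation of the day 8 and day 15 differences was 0.253, and across all genes it was 0.0525. The genes of 1 array are not independent, and both differences come from the same slides though from different arrays. Since no gene passed the adjusted test, these counts name no gene that stayed changed.

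Among these 32 genes, LCP1, the actin-bundling plastin of blood cells, was at 7.68, 7.94 and 7.87 in DMSO and from 7.19 to 7.57 with a median of 7.31 in rotenone on day 15. All 6 rotenone arrays were below all 3 DMSO arrays, and the difference was -0.49 (SE 0.12, adjusted p = 0.77) after -0.99 on day 8 (adjusted p = 2.9e-05). CDH9, a cadherin of synaptic contacts, likewise had every rotenone array below DMSO, at -0.36 (SE 0.11) after -0.85. PDZRN4, a PDZ and RING domain protein, differed by -0.37 (SE 0.11) after -0.84, and SYT6, a synaptotagmin, by -0.31 (SE 0.10) after -0.71, and by -0.20 without DMSO replicate 1.

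In the other direction DLK1, a Delta-like ligand, was at 9.11, 8.90 and 8.88 in DMSO and between 9.16 and 9.51 in rotenone, without overlap. Its difference was 0.37 (SE 0.13) after 0.89 on day 8 (adjusted p = 0.00017). The chemokine receptor CXCR4 differed by 0.30 (SE 0.11) after 0.59, and the phospholipase PLAAT3 by 0.35 (SE 0.13) after 1.01, and by 0.23 without DMSO replicate 1. Some genes lay on the opposite side of DMSO from day 8. The mitotic kinase CIT went from -0.60 (adjusted p = 0.019) to 0.49 (SE 0.17), with 4.95, 5.21 and 5.92 in DMSO and 5.34 to 6.16 in rotenone. CABP2, a calcium-binding protein, went from -0.66 (adjusted p = 0.02) to 0.49 (SE 0.19). CDH9, PDZRN4, SYT6, DLK1, CXCR4, PLAAT3, CIT and CABP2 were chosen after their values were seen, and their adjusted p-values on day 15 were at or near 1.0.

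Background maturation was large beside these differences. From day 8 to day 15 the DMSO level moved over 1.5-fold in 177 of the 454 genes (39%) and in 2816 of all genes (18.9%). In 315 of the 454 the rotenone level moved more than the DMSO level between the days, and in 139 the DMSO level moved more. Over all genes these numbers were 7960 and 6927, and the 454 were chosen for a gap between the groups on day 8, which by itself tilts the count. The genes higher on day 8 had a median move of -0.01 in DMSO and -0.74 in rotenone. The genes lower on day 8 had median moves of -0.12 and 0.68.

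The pathways that react to complex I inhibition had medians near 0 on day 15. The integrated stress response is the programme by which cells under mitochondrial or amino acid stress induce ATF4 target genes. Of 40 measured members, 4 were higher and 17 lower on day 8 at an adjusted p under 0.05, with a median of -0.21. Over all genes 8.24% were higher and 10% lower at that threshold, with a median of -0.017. On day 15, 0 of the 40 had an unadjusted p under 0.05, the median was -0.0048, and 39 had intervals inside 1.5-fold. PHGDH, the first enzyme of serine synthesis, fell by 0.96 on day 8 and differed by 0.03 on day 15, where DMSO was at 12.21, 12.04 and 11.73 and rotenone between 11.80 and 12.12. CHAC1, which degrades glutathione, went from -0.89 to -0.09. Asparagine synthetase, ASNS, went from -0.52 to 0.01, and the stress sensor SESN2 from -0.64 to -0.01. The tests between days for these genes gave adjusted p-values of 0.00056 for PHGDH, 0.0022 for CHAC1, 0.0027 for ASNS and 0.0074 for SESN2. These 4 genes were chosen after their values were seen. By the rule, the members of lowest p on day 15 were the amino acid transporter SLC7A1 (0.17, SE 0.10) and the serine phosphatase PSPH (-0.14, SE 0.07).

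Respiratory chain and glycolysis genes had medians near 0 on both days. All 37 measured complex I subunits had a median difference of 0.018 on day 15, 36 had intervals inside 1.5-fold, and NDUFC2 alone had an unadjusted p under 0.05. NDUFC2, an accessory subunit of the membrane arm, was at 11.21, 11.11 and 11.11 in DMSO and 10.73 to 11.14 in rotenone, a difference of -0.21 (SE 0.06) after -0.18 on day 8 (adjusted p = 0.053). That value is the mean of 2 unlike probes, at -0.34 and -0.07 on day 15. NDUFS8, an iron-sulfur subunit, differed by 0.14 (SE 0.07). Complexes II to V, 40 genes, had a median of -0.0075, with SDHD of complex II at -0.22 (SE 0.09) and ATP5MC2 of the ATP synthase ring at 0.14 (SE 0.07). The 31 glycolysis genes had a median of 0.033. Among them the glucose transporter SLC2A1 was at 7.81, 7.92 and 8.00 in DMSO and between 7.55 and 7.80 in rotenone, every rotenone array lower, with a difference of -0.25 (SE 0.07), and PFKFB3, which raises glycolytic flux, was at 0.19 (SE 0.10). The 2 probes of PFKFB3 were at 0.37 and 0.01. The 39 genes of mitochondrial dynamics and quality control had a median of -0.01 and all had intervals inside 1.5-fold. Their lowest p belonged to PPARGC1B, a coactivator of mitochondrial biogenesis, at 0.29 (SE 0.10) after 0.58 on day 8 (adjusted p = 0.00087). The probes of PPARGC1B were at 0.46 and 0.11 on day 15.

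The lists of sterol synthesis, chaperone and NRF2 target genes had day 15 medians between -0.021 and 0.028. Of 29 cholesterol synthesis genes, 9 were higher and 1 lower on day 8 at an adjusted p under 0.05 (median 0.18), beside 8.24% and 10% of all genes, and on day 15 the median was -0.021 with 2 at an unadjusted p under 0.05, both lower. These were INSIG1, which retains the sterol sensor SCAP, at -0.24 (SE 0.11), and the enzyme NSDHL at -0.16 (SE 0.08). ACLY, which makes cytosolic acetyl-CoA, differed by 0.09 (SE 0.11). Of 31 heat shock and chaperone genes, 2 were higher and 8 lower on day 8 at that threshold and against those shares of all genes, and none passed an unadjusted p under 0.05 on day 15 (median -0.0061), the nearest being HSPA2 (0.17, SE 0.10) and HSPA13 (-0.14, SE 0.08). The 26 NRF2 targets, which carry the oxidative stress response, had 3 higher and 0 lower on day 8 with a median of 0.0066, and a median of 0.028 on day 15, with the drug exporter ABCC1 at 0.29 (SE 0.10; 0.18 without DMSO replicate 1) and AKR1C1 at -0.15 (SE 0.09). The 38 genes of p53 and apoptosis had a median of -0.0041 and 0 at an unadjusted p under 0.05. ZMAT3 was at -0.24 (SE 0.13) and BTG2 at 0.14 (SE 0.07) in that list. The 23 HIF targets had a median of -0.038 and 3 genes, all lower, at an unadjusted p under 0.05, SLC2A1 again, the clock repressor BHLHE40 (-0.71, SE 0.30) and MXI1 (-0.18, SE 0.08). The 26 interferon-stimulated genes had a median of -0.0056, and ISG15 went from 0.63 on day 8 (adjusted p = 3e-05) to -0.16 (SE 0.07) on day 15, with a test between days at an adjusted p of 0.00043.

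**Figure D4:**
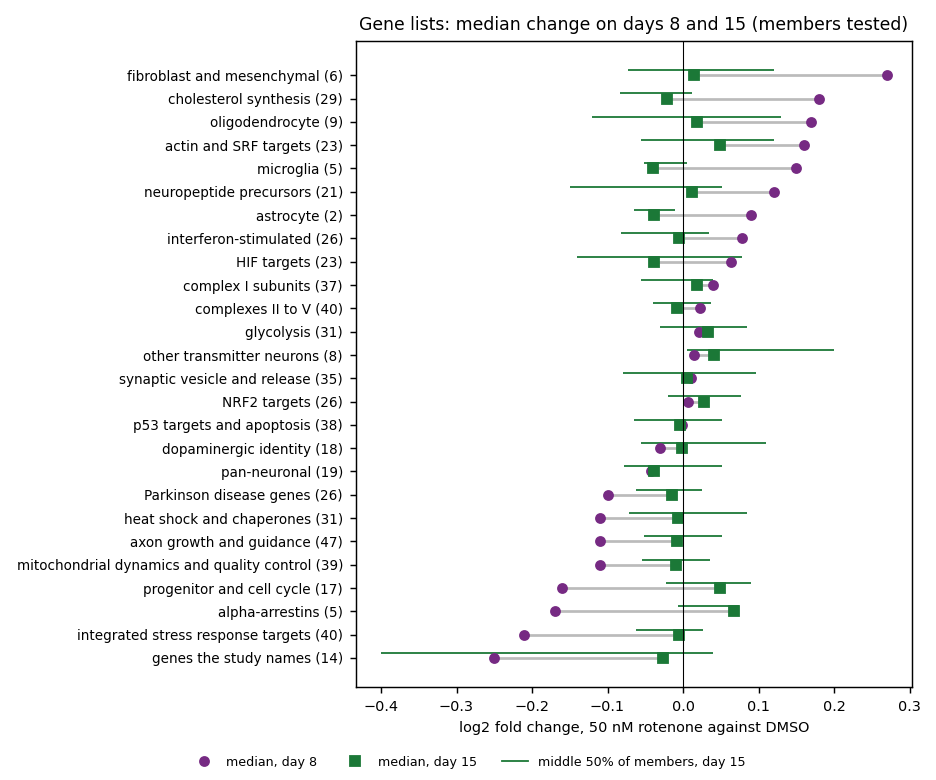
Median log2 fold change of each gene list on day 8 (circles) and day 15 (squares), with the number of members tested in brackets and the middle 50% of members on day 15 as a green line. The day 15 medians lie between -0.04 and 0.068, while the integrated stress response list lies at -0.21 on day 8.

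Neuronal identity was examined next through marker genes. Of 20 pan-neuronal markers 19 were measured. TUBB3, neuronal tubulin, was at 15.77, 15.79 and 15.51 in DMSO and between 15.50 and 15.70 in rotenone, overlapping groups with a difference of -0.11 (interval -0.30 to 0.07). All 19 pan-neuronal markers measured had intervals inside 1.5-fold on day 15, with a median of -0.038 and 0 at an unadjusted p under 0.05. The microtubule protein MAP2 had the lowest p among those lower, at -0.13 (SE 0.08), after a fall of 0.38 on day 8 (adjusted p = 0.0019). The neurofilament gene NEFH had it among those higher, at 0.10 (SE 0.07). Their summed signal ran from 18.85 to 18.98 in DMSO and from 18.80 to 18.95 in rotenone, on the log2 scale.

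Of 24 dopaminergic genes 18 were measured, with a median of -0.0016 and a range of -0.192 to 0.191. Tyrosine hydroxylase, TH, the rate-limiting enzyme of dopamine synthesis, was at 6.73, 6.83 and 6.96 in DMSO, 7.00, 6.39 and 7.03 after 12 h, and 7.44, 6.91 and 7.37 after 24 h. The rotenone arrays reached from below to above DMSO, and the difference was 0.18 (SE 0.21, interval -0.25 to 0.61). The dopamine transporter SLC6A3 was at 6.15, 6.17 and 6.15 in DMSO and 5.95 to 6.27 in rotenone, a difference of -0.05 with an interval from -0.55 to 0.45. DDC, which makes dopamine from L-DOPA, differed by 0.12 (interval -0.32 to 0.56), and the midbrain factors EN1 and PITX3 by 0.04 and -0.02. RET, the GDNF signalling receptor, at 0.19 (SE 0.08), and its co-receptor GFRA1, at 0.15 (SE 0.07), had the lowest p among those higher. NR4A2, the nuclear receptor that maintains dopaminergic fate, had the lowest p among those lower, at -0.19 (SE 0.13). SLC18A2, LMX1A and ALDH1A1, which also define these neurons, did not pass the filter on signal. In the DMSO controls the mean of TH went from 9.78 on day 8 to 6.84 on day 15, that of SLC6A3 from 8.21 to 6.16 and that of DDC from 6.18 to 5.14. NR4A2 went the other way, from 6.19 to 7.75. The markers of transmitter synthesis and uptake were thus lower in the older control cultures, which goes against a label of dopaminergic maturity on day 15. Of 26 Parkinson disease genes none passed the adjusted test. CHCHD2, a mitochondrial protein, was at -0.25 (SE 0.09), LRRK1, a paralogue of LRRK2, at -0.31 (SE 0.15) and the protease HTRA2 at 0.06 (SE 0.06). LRRK1 and GFRA1 were chosen after their values were seen.

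Markers of other cells were measured in part. GFAP, AQP4 and S100B of astrocytes, SOX10 of oligodendrocytes, and MKI67, TOP2A and CDK1 of dividing cells did not pass the filter. CCNB1 of dividing cells did pass, with means of 6.2 in DMSO and 6.25 in rotenone, as did OLIG2 and MBP of oligodendrocytes. Of 12 astrocyte genes 2 were measured, ALDOC (0.02) and SLC1A2 (-0.09), and 5 of 14 microglial genes and 6 of 12 fibroblast and mesenchymal genes were, and none of these had an unadjusted p under 0.05. TMEM119 (0.24, SE 0.15) and PTPRC (-0.29, SE 0.18) had the lowest p of the microglial list, and TAGLN (0.13, SE 0.12) and COL1A2 (-0.05, SE 0.12) of the fibroblast list. The probes of PTPRC lay on opposite sides of DMSO, at -0.67 and 0.09. Vimentin (VIM), in the fibroblast list but also made by immature neural cells, had means of 14.67 and 14.75, and CNP of the oligodendrocyte list, of which 9 of 13 were measured, 10.43 and 10.39. SLC17A6, SLC18A3, VIM and CNP were chosen after their values were seen. Of 17 measured progenitor and cell cycle genes 0 passed, with MCM5 (0.21, SE 0.10) and MCM2 (-0.05, SE 0.11) nearest. Summed cell cycle signal was 12.64 to 12.66 in DMSO and 12.55 to 12.90 in rotenone. Of 18 genes of other transmitter neurons 8 were measured. SLC17A6, a vesicular glutamate transporter, had means of 12.39 in DMSO and 12.38 in rotenone, and SLC18A3, the vesicular acetylcholine transporter, of 12.13 and 12.36. SLC32A1, the vesicular transporter of GABA, was at 0.34 (SE 0.15), with 0.82, 0.14 and 0.05 by slide and 0.10 (SE 0.14) without DMSO replicate 1, and the noradrenaline transporter SLC6A2 at -0.33 (SE 0.23). Synaptic release genes, 35 measured, had a median of 0.0049, with CADPS of dense-core vesicle release at 0.33 (SE 0.15) and SYT4 at -0.20 (SE 0.09). The probes of CADPS were at 0.07 and 0.59, the latter well above background on 7 of 9 arrays. The axon guidance list, 47 genes, had 4 higher and 12 lower on day 8 at an adjusted p under 0.05, beside 8.24% and 10% of all genes, and a median of -0.0081 on day 15. In it the receptor NRP2 was at 0.50 (SE 0.12). The probes of NRP2 were at 0.64 and 0.35, the former well above background on 6 of 9 arrays. The semaphorin SEMA3A was at -0.28 (SE 0.11) after -0.52 on day 8 (adjusted p = 0.003).

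Beyond 1.5-fold at an unadjusted p under 0.01 there were 16 genes (0.107%), 6 higher and 10 lower in rotenone. Adjusted p-values for them were 0.33 or more, and 12 had DMSO means under 7. When arrays were scaled by the 75th percentile instead of quantiles the split was 10 higher and 3 lower, and with the processed scanner signals it was 11 and 8. Of the 16, 6 were well above background on all 9 arrays, among them PRSS8, OLIG1, RTP4, RIT2 and CCK. In 5 of the 16 the arrays did not overlap between the groups, as 82 of all genes (0.551%) did. None of the 16 was called on day 8.

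Several of these genes encode transcription factors. OLIG1, a basic helix-loop-helix factor of oligodendrocyte and ventral progenitors, was at 6.93, 7.44 and 7.92 in DMSO, 8.02, 7.76 and 8.23 after 12 h, and 8.27, 8.33 and 7.92 after 24 h. Rotenone was higher on each slide, by 1.21, 0.61 and 0.16, and the groups overlapped only at the bright DMSO array of slide 3. The difference was 0.66 (1.58-fold, SE 0.16, adjusted p = 0.79), and 0.49 (SE 0.18) without DMSO replicate 1. The test between days gave 0.84 (adjusted p = 0.038), with no change called on day 8 (-0.18). OLIG2, its neighbour and partner and a defining oligodendrocyte marker, was at 4.94, 5.58 and 5.62 in DMSO and 5.47 to 6.06 in rotenone (0.46, SE 0.16), and without DMSO replicate 1 it was 0.29 higher (SE 0.17). Both had been much brighter on day 8, where DMSO means were 12.59 for OLIG1 and 9.36 for OLIG2, and by day 15 those means were 7.43 and 5.38. The corresponding rotenone means were 12.41 and 9.24 on day 8 and 8.09 and 5.84 on day 15. Of 9 oligodendrocyte genes measured only these had an unadjusted p under 0.05, MAG was at -0.38 (SE 0.22), and the summed signal of the list ran from 11.02 to 11.44 in DMSO and from 11.10 to 11.43 in rotenone.

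KLF9, a Krüppel-like factor induced by thyroid and glucocorticoid hormones, was at 7.32, 7.40 and 7.46 in DMSO and between 6.72 and 7.28 in rotenone, with no overlap. Its difference of -0.44 (1.36-fold, SE 0.08, adjusted p = 0.33) was below 1.5-fold. ESRRB, an orphan nuclear receptor, was at 0.61 (SE 0.20) with a test between days of 1.05 (adjusted p = 0.038). GLIS2, a Gli-like repressor, was at -0.78 (SE 0.18). It was well above background on 1 of 3 arrays after 12 h and 2 of 3 after 24 h, so the size of its difference is uncertain. Its arrays of slide 1 were brighter in every group.

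ZNF577, a KRAB zinc finger gene, was at 4.49, 5.88 and 6.06 in DMSO, with the array of slide 1 among the rotenone values of 3.99 to 4.69. Only 1 of 3 arrays in each rotenone group was well above background, so the rotenone levels are near the floor and the size of the difference is uncertain. The fit gave -1.20 (SE 0.24, adjusted p = 0.33), with -0.23, -1.54 and -1.83 by slide and a range from -2.24 to -0.35 over the alternatives run. DEFB136, a beta-defensin, was at 4.10, 5.48 and 5.23 in DMSO and 3.88 to 4.33 in rotenone. It was well above background on 1 of 3 arrays after 12 h and on 0 of 3 after 24 h, so the size of its difference is uncertain. The 24 h group differed from DMSO by -0.82 (interval -1.42 to -0.22, adjusted p = 0.97). The pooled difference of DEFB136 was -0.88 (SE 0.25), and -1.31 (SE 0.22) without DMSO replicate 1. In both genes DMSO replicate 1, whose scan name does not give DMSO, was the array nearest to rotenone.

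Among secreted and signalling genes, cholecystokinin (CCK), a neuropeptide of midbrain dopaminergic neurons, was at 6.50, 7.18 and 7.36 in DMSO, 6.11, 6.47 and 6.73 after 12 h, and 6.12, 6.68 and 5.97 after 24 h. Within each slide the rotenone arrays were lower, by 0.38, 0.61 and 1.01 on average, and across slides the groups overlapped. The difference was -0.67 (1.59-fold, SE 0.22), and -0.88 (SE 0.25) without DMSO replicate 1. Of 21 neuropeptide precursors measured, 1 other had an unadjusted p under 0.05, somatostatin (SST), at 0.33 (SE 0.15). PRSS8, a membrane-anchored serine protease, was at 4.90, 4.89 and 5.08 in DMSO and 5.07 to 5.80 in rotenone, the lowest rotenone array touching DMSO. Its difference was 0.59 (1.5-fold, SE 0.11, adjusted p = 0.33), with 0.58 after 12 h and 0.60 after 24 h. PTGIS, the prostacyclin synthase, was at -0.63 (SE 0.17), and CNMD, the cartilage glycoprotein chondromodulin, at -0.59 (SE 0.19) with every rotenone array below DMSO. PTGIS and CNMD were well above background on 2 of 3 arrays in each rotenone group, so their rotenone levels are near the floor.

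RIT2, a Ras-like GTPase of neurons that binds the dopamine transporter, was at 6.31, 6.71 and 6.37 in DMSO, 5.89, 6.10 and 5.77 after 12 h, and 6.06, 5.87 and 5.28 after 24 h. The groups did not overlap, and the difference was -0.64 (1.55-fold, SE 0.17). RTP4, an interferon-inducible chaperone of receptors, was at 6.91, 7.17 and 7.43 in DMSO and 7.45 to 8.09 in rotenone, every rotenone array higher (0.60, 1.52-fold, SE 0.20). No other interferon-stimulated gene than RTP4 was higher at an unadjusted p under 0.05. SKOR1-AS1, an antisense RNA, was well above background on 0 of 3 DMSO arrays and on 3 and 2 of 3 arrays after 12 h and 24 h. Its difference was 0.93 (interval 0.49 to 1.36, adjusted p = 0.51), of uncertain size since DMSO was not well above background. The test between days gave 1.38 (adjusted p = 0.01), of uncertain size as well. On day 8 SKOR1-AS1 was well above background on 2 of 3 DMSO arrays and 1 of 6 rotenone arrays. That test also reuses the day 15 values that chose SKOR1-AS1, as it does for OLIG1, ESRRB and PARVA. INSC, an adaptor of spindle orientation, was at 0.77 (SE 0.24), UBR3, a ubiquitin ligase, at -0.70 (SE 0.20) and the non-coding LINC00661 at -1.14 (SE 0.37), each close to the floor with rotenone or DMSO arrays not well above background. LINC00661 was at -1.69 (SE 0.37) without DMSO replicate 1.

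**Figure D5:**
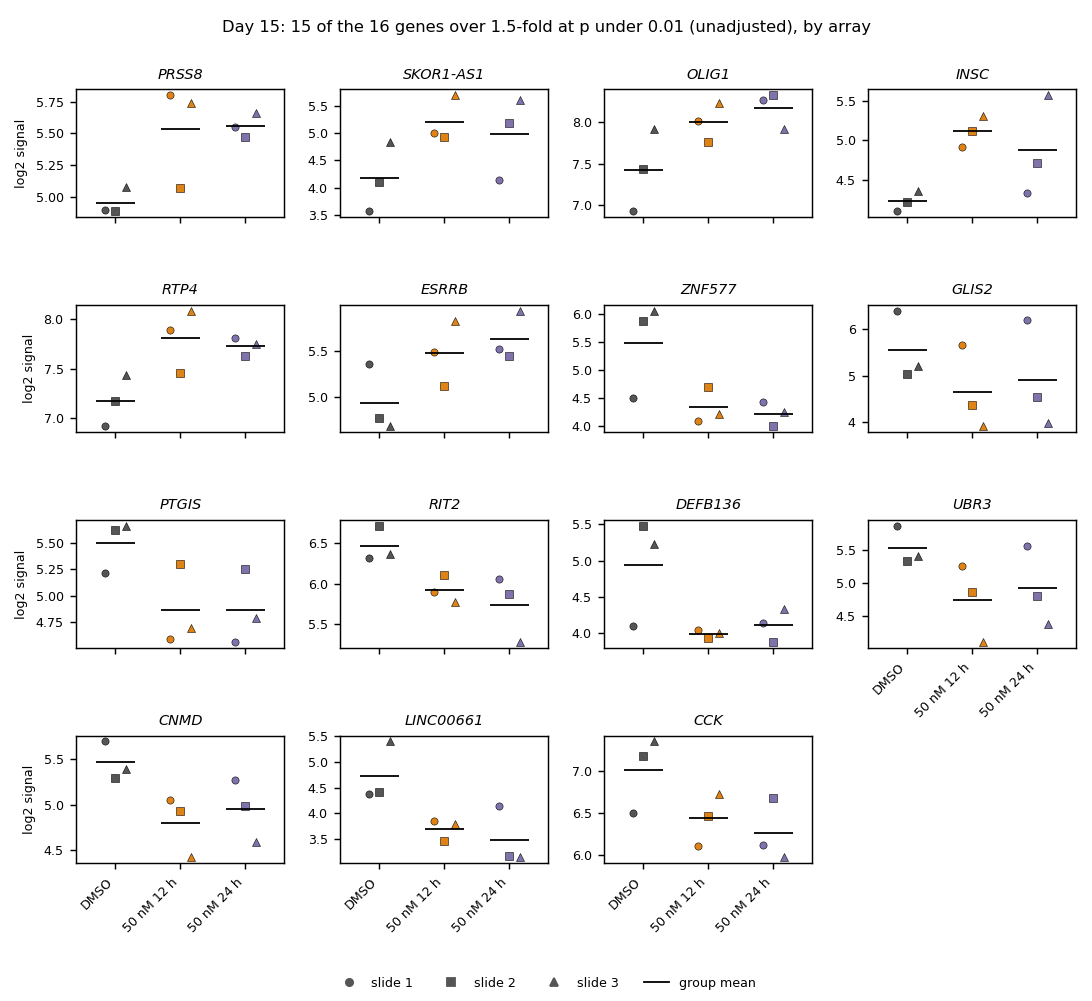
Log2 signal on each of the 9 day 15 arrays (points, shaped by slide) and group means (lines) for 15 of the 16 genes beyond 1.5-fold at an unadjusted p under 0.01, each panel with its own axis. RTP4 is higher and RIT2, CNMD and LINC00661 lower in all 6 rotenone arrays than in all DMSO arrays, while the other 11 overlap.

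Smaller differences with low p-values were measured in 5 genes besides KLF9. S100A1, a calcium sensor, was at 0.50 (SE 0.10) and higher by 0.55, 0.49 and 0.45 on the 3 slides. TCEAL5, a neuronal elongation factor-like protein, was at -0.40 (SE 0.08), and PPIAL4G, a cyclophilin-like gene whose near-identical copies may share its probe, at -0.46 (SE 0.10). PARVA, which links integrins to actin, lay on opposite sides of DMSO on the 2 days. It rose by 0.40 on day 8 (adjusted p = 0.0015) and was 0.35 lower than DMSO on day 15 (-0.35, SE 0.08, adjusted p = 0.51), at 7.00, 7.80 and 7.42 in DMSO and 6.82, 7.33, 7.01, 6.84, 7.30 and 7.05 in rotenone. The test between days gave -0.75 (adjusted p = 0.00078). The fifth was NRP2, given above.

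The genes the study names were taken partly from these arrays, and those are no independent evidence of direction, and partly from earlier rotenone work, as TYMS, CENPU and ATF4 were. Of 18, 14 were measured, 1 of them beyond 1.5-fold (CCK), and 5 had an unadjusted p under 0.05 on day 15, all lower: CCK, LCP1, CD200, FRMPD2 and GRXCR1. CD200, a neuronal ligand that restrains microglia, was at 6.79, 6.83 and 6.99 in DMSO and between 6.15 and 6.81 in rotenone (-0.42, SE 0.19) after -0.65 on day 8 (adjusted p = 0.023). FRMPD2 was at -0.34 (SE 0.13) after -0.58, and GRXCR1 at -0.44 (SE 0.18) after -0.33. The stress cytokine GDF15 was at 8.26, 7.88 and 8.28 in DMSO and 7.79 to 8.93 in rotenone, overlapping, with a difference of 0.31 (interval -0.13 to 0.75) after a rise of 0.93 on day 8 (adjusted p = 0.0047). TOP2B, the topoisomerase of neurons, fell by 0.37 on day 8 (adjusted p = 0.0001) and differed by -0.01 on day 15 (interval -0.12 to 0.10), with a test between days of 0.36 (adjusted p = 0.0073). PPP1R27 was at 0.21 (SE 0.21) and ATF4 at -0.10 (SE 0.08). TYMS at 0.04 (interval -0.63 to 0.72) and CENPU at 0.02 (interval -0.27 to 0.31) had no difference larger than their spread. Without DMSO replicate 1 TYMS was at -0.22 (SE 0.37).

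The exposure times were also taken apart on day 15. Against the shared DMSO arrays, 18 genes (0.121%) passed 1.5-fold at an unadjusted p under 0.01 after 12 h, 8 higher and 10 lower, and 18 (0.121%) after 24 h, 6 higher and 12 lower. None passed at an adjusted p under 0.05, with smallest adjusted p-values of 0.142 (SPAG8) and 0.217 (KLF9), and 351 and 662 genes had an unadjusted p under 0.05. With the authors' normalized values both genes did pass, SPAG8 after 12 h at -0.66 (adjusted p = 0.0018) and KLF9 after 24 h at -0.56 (adjusted p = 0.014, under 1.5-fold). With 75th percentile scaling the splits were 17 higher and 0 lower after 12 h and 8 and 7 after 24 h, and with the processed scanner signals 20 and 5 after 12 h. Without 24 h replicate 1, the array with low ACTA1, 60 genes passed after 24 h.

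Set against each other, 24 h and 12 h differed beyond 1.5-fold at an unadjusted p under 0.01 in 21 genes (0.141%), 17 higher and 4 lower after 24 h. The split was 5 and 5 with 75th percentile scaling and 8 and 15 with the processed scanner signals. Only SPAG8 passed the adjusted test. It encodes a sperm-associated microtubule protein and was at 4.78, 4.94 and 4.64 in DMSO, 4.25, 4.33 and 3.73 after 12 h, and 4.79, 5.03 and 4.83 after 24 h. The 12 h arrays were below all others, and the difference was 0.78 (SE 0.11, interval 0.55 to 1.02, adjusted p = 0.029). SPAG8 is dim, and was well above background on 1 of 3 arrays after 12 h, 2 of 3 in DMSO and 3 of 3 after 24 h. The next lowest p-values belonged, among genes higher after 24 h, to TSPEAR-AS2 (0.61, adjusted p = 0.33) and ZNF205-AS1 (0.78, adjusted p = 0.92), and among genes lower after 24 h to TRIM49D1 (-0.74), P3H2 (-0.45) and VSTM2A-OT1 (-0.49), all 3 at an adjusted p of 0.92. P3H2 was at 5.62, 6.46 and 6.59 after 24 h and at 6.63, 6.54 and 6.85 after 12 h. Slide 1 thus carried most of its difference. The 4 lower genes beyond 1.5-fold were TRIM49D1, OR1N2 (-0.73), CXCL2 (-0.63) and PMAIP1 (-0.60), the last 3 named after their values were seen. AMH, lower after 12 h and higher after 24 h than DMSO, differed by 0.56 between the exposures (adjusted p = 0.92).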

How the data were processed

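Per the labels, RNA was hybridised to Agilent SurePrint G3 1-colour arrays. The authors deposited scanner files with median signal and local background as intensity, with flags for spots well above background, and a table of normalized log2 values for 21733 probes, used as an alternative. Feature Extraction versions 11.5.1.1 and 12.0.0.7 stand in the file headers, and the methods name normexp correction, quantile normalization, ComBat and limma.

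Median signals were corrected by normexp (offset 0), quantile normalized over 24 arrays, and averaged by probe and then by gene (limma 3.58.1, R 4.3.3). Symbols were assigned by matching the accession of each probe to RefSeq GRCh38.p14 transcripts, leaving out accessions of more than 1 gene. Of 50599 probes, 30275 received a symbol. Of 26124 probes flagged well above background on all 3 arrays of 1 or more day 15 groups, 20019 were named, giving 14887 genes. The fit held 8 groups of 3 arrays with slide as a block (14 residual degrees of freedom, 2.91 prior), and p-values were adjusted by Benjamini-Hochberg over all genes. The number of arrays limits the precision. Each slide holds 1 array of every group. Day 15 arrays of the same slide deviated together (9 pairs, correlation 0.435 at the lowest), and those of different slides did not (median -0.478).

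The text names up to 10 genes per direction over 1.5-fold at p under 0.01, the 5 of lowest p per direction at any fold, the genes the study names, the 5 largest changes of day 8 per direction, the gene of lowest p in each direction of 25 pathway and marker lists, and the 3 of lowest p per direction for 24 h against 12 h. Members and lists were chosen with earlier results of these data known. Genes that met this rule but are not named are not reported here. The steps were tested on simulated data. Sequences are from RefSeq GRCh38.p14. Alternatives are given in the closing section.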

Additional observations from a re-analysis of the deposited data

Results flagged for a closer look

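The effect of 50 nM rotenone differed between day 15 and day 8 in 345 genes beyond 1.5-fold at an adjusted p under 0.05, by the interaction term of the limma fit.

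SPAG8 differed between the 24 h and 12 h exposures on day 15 by 0.78 on the log2 scale (adjusted p = 0.029), the only gene to pass. It also passed with the authors' values (0.74, adjusted p = 0.00028), without 12 h replicate 2 (0.87, adjusted p = 0.035) and without 24 h replicate 1 (0.86, adjusted p = 0.043), and did not in the other 12 alternatives run.

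On 1 array, 24 h replicate 1 of day 15, 3 of the 50 genes tested stood far from the other 5 rotenone arrays by Dixon's test. ACTA1 was at 8.72 beside 11.43 to 11.88, PPP1R27 at 5.16 beside 6.05 to 6.50, and P3H2 at 5.62 beside 6.46 to 6.85. P3H2 was among the 50 for its low p between 24 h and 12 h. That p rests in part on this array, so the flag of P3H2 is partly set by how it was chosen. Chance alone places about 1 in 20 such groups past the critical value. The cause was not tested.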

How the results depend on the processing

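With 3 DMSO wells in 1 cell line and 13 of 16 leading genes at low signal, day 15 calls at an unadjusted p rest on few arrays, and a gene at low signal could differ by 1.5-fold unseen. All 16 genes over 1.5-fold at an unadjusted p under 0.01 (15 of 15 in the authors' table) kept their direction in the settings tried, and between 5 and 16 of them kept a p under 0.01. No called result changed sign. Of the 454 genes called on day 8, 0 to 4 stood beyond 1.5-fold on day 15 across settings. The slide block pairs arrays of 1 slide: without it (and with no batch correction) the counts at an unadjusted p were 5 for pooled rotenone (16 with it), 4 for 12 h (18), 7 for 24 h (18) and 9 for 24 h against 12 h (21), and the count of genes whose change differed between days was 109 (345). With only the arrays of the groups compared the counts were 25, 47 and 31 for pooled, 12 h and 24 h. With a normexp offset of 50, which shrinks dim genes, they were 1, 0 and 2, and 4 for 24 h against 12 h, 225 for day 8 (454) and 205 between days. With the study's filter, which admits dimmer probes, they were 61, 75, 41 and 46. Slides 2 and 3 alone gave 60 for 24 h and 1 gene at an adjusted p for pooled rotenone. Scaling to the 75th percentile gave 10 for 24 h against 12 h. The processed scanner signals gave 744 for day 8 and 557 between days. Leaving out 1 array at a time gave 0 to 1 genes at an adjusted p for pooled rotenone, 10 to 22 at an unadjusted p, 19 to 40 for 12 h, 9 to 60 for 24 h, 12 to 64 for 24 h against 12 h, 415 to 510 for day 8 and 269 to 419 between days. The array that mattered was DMSO replicate 3 for pooled rotenone (10), 12 h replicate 2 (40) and DMSO replicate 2 (28) for 12 h, and 24 h replicate 1 (60), DMSO replicate 1 (30) and 24 h replicate 3 (9) for 24 h. For 24 h against 12 h it was 24 h replicate 1 (64), 12 h replicate 2 (50), 24 h replicate 2 (49) and 24 h replicate 3 (12). ZNF577 passed an adjusted p under 0.05 without DMSO replicate 1, at -1.59 (adjusted p = 0.028) for 12 h and -1.71 (adjusted p = 0.012) for 24 h. The cause of these moves was not tested. TFAP2A-AS1 on day 8 lost its call in 12 of 18 alternatives.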
